A study of Mus musculus with 2 samples.

Results

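The BCL2 family sets whether a cell keeps or opens its outer mitochondrial membrane. Survival members bind and restrain the pore-forming effectors BAX and BAK, BH3-only members neutralise the survival members or engage the effectors directly, and the opened pore releases cytochrome c, which starts the caspase cascade. In lymphocytes, signals from cytokine receptors such as that of IL-7 are known to maintain survival members, and antigen receptor and NF-κB signals are known to induce the BCL2-A1 genes. The 10 genes described here are the survival genes Bcl2, Bcl2l1 (BCL-XL), Mcl1, Bcl2a1b and Bcl2a1d (mouse copies of BCL2-A1), the BH3-only genes Bcl2l11 (BIM), Pmaip1 (NOXA) and Bbc3 (PUMA), and the effector genes Bax and Bak1. They were taken by name and not by a cut on their level, with earlier results of these data known. They are 10 of the 23679 genes in the count tables.

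The cells were sorted as group 3 innate lymphoid cells (ILC3s), which are lymphocytes without antigen receptors that produce IL-22 in the gut, from the small-intestinal lamina propria of male C57BL/6 mice aged 18 months. The labels state no genotype or treatment for these samples, and all cells come from this 1 group with 2 replicates, sample tag 6 in replicate 1 and sample tag 12 in replicate 2, each in a library of its own. The labels do not say whether the replicates were separate animals or pools. P-values therefore rest only on how group differences vary between these 2 samples, a spread that may be technical. For each gene this spread was moderated by that of all genes in the fit. A gene can thus be called although its 2 replicates differ widely. Transcripts were counted as unique molecular identifiers (UMIs) on the BD Rhapsody system. With only aged samples among the labels, nothing can be said here on ageing, and the comparisons are between groups of cells defined by marker UMIs within the sort.

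A cell with at least 1 UMI of Cd3d, Cd3e or Cd3g was placed in the T group (1149 and 1117 cells in replicates 1 and 2). Among cells with no CD3 UMI, those with an Ncr1 UMI formed the Ncr1 group (608 and 438), those with a Ccr6 or Cd4 UMI and none of Ncr1 formed the Ccr6/Cd4 group (128 and 79), and all others formed the rest (1452 and 2206). Ncr1 encodes the receptor NKp46, and Ccr6 and Cd4 mark lymphoid tissue inducer-like ILC3s in mice. Because a UMI can be missed, the rest also holds cells of the other types whose marker was not sampled. For the same reason the Ncr1 and Ccr6/Cd4 groups can hold T cells with no CD3 UMI. Median depth was 1991 and 1769 UMIs per cell in the T group, 2045 and 1860 in the Ncr1 group, 1629 and 1670 in the Ccr6/Cd4 group and 1725 and 1579 in the rest.

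Each group had UMIs of all 8 genes of the ILC3 marker list, which summed to between 3927 and 8904 CPM, the UMIs of a gene per 1000000 UMIs of its group. The T group also had UMIs of all 10 T cell markers, 4848 and 4151 CPM, against 584 to 1210 CPM over the 6 other sums. Cd3d, Cd3e and Cd3g are on this list and define the group, so part of this gap was set by the rule. Without them, 5 of 6 tested markers were called higher in T cells by edgeR. Trbc1 was not, at 364 and 320 TMM-scaled CPM in T cells against 533 and 471 in Ncr1 cells. Trac had 38.1 and 209 TMM-scaled CPM in Ccr6/Cd4 cells, against 46.6 and 28.8 in Ncr1 cells and 57.0 and 113 in the rest. With Trac added to the T cell rule, the Ccr6/Cd4 group held 121 and 66 cells, so it may include T cells, more so in replicate 2. Kit and Il22 were lower in the T group (log2 ratio −2.14 and −1.85, edgeR adjusted p = 8.41e-13 and 1.2e-12), so the ILC3 label holds less well for it. Markers of other cell types moved with the groups and the replicates. The 7 stromal markers summed to 4285 and 136 CPM in T cells, 4057 and 36.7 CPM in Ncr1 cells, 605 and 26.0 CPM in Ccr6/Cd4 cells and 5314 and 110 CPM in the rest (replicates 1 and 2). By edgeR, 7 of 7 were called higher in T cells over the mean of the others, 5 of 7 higher in Ncr1 than in Ccr6/Cd4 cells and 7 of 7 lower in Ccr6/Cd4 cells than in the rest. B or plasma cell markers summed to 1101 and 45.4 CPM in T cells, 3017 and 2677 CPM in Ncr1 cells, 811 and 45.5 CPM in Ccr6/Cd4 cells and 3156 and 1933 CPM in the rest, and 4 of 5 tested were called lower in Ccr6/Cd4 cells than in the rest. The libraries shared 10 cell barcodes among the cells of their own tags.

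Bcl2a1b and Bcl2a1d are near-identical copies of 1 gene on chromosome 9, and their promoters are shown because they make plain how little separates copies whose counts are compared below. Both are given 5′ to 3′ as the stretch that aligns between the copies, from RefSeq's windows on GRCm38.p6, chr9:89199023-89199278 on the plus strand for Bcl2a1b and chr9:88731801-88732050 on the minus strand for Bcl2a1d, and capitals mark the bases that differ in the alignment.
Bcl2a1b: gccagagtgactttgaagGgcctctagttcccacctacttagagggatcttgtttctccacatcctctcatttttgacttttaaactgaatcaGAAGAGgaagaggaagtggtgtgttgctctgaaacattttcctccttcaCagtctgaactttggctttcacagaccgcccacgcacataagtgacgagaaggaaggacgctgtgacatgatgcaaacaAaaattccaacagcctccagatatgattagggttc
Bcl2a1d: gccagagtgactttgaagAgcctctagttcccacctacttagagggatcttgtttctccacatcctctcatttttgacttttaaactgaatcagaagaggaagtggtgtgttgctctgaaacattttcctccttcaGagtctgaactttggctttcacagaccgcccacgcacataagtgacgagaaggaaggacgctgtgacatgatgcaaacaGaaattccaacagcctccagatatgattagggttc
The stretches were 96.5% identical over 256 aligned positions, with 3 substitutions and a gap of 6. The letters GAGGAAGT, searched on both strands with overlaps allowed, occurred in both, in the windows of Bcl2a1a and Bak1, and in 1052 of 32851 mouse promoter windows (3.20%). They were not in the windows of Bcl2, Bcl2l1, Mcl1, Bcl2l11, Bbc3 or Bax. Of the 31-base words of the annotated transcripts (GENCODE M21), 73.3% of those of Bcl2a1b and 89.1% of those of Bcl2a1d also occurred in another copy. In the last 300 bases these shares were 83.0% and 98.1%. The split of reads between the copies is therefore uncertain, and a sum over the copies is also given.

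Within each replicate, T cells carried more Bcl2a1b and Bcl2a1d transcripts and fewer Bcl2 transcripts than each of the 3 groups without CD3 UMIs. Their Pmaip1 level was above that of the Ncr1 group and the rest, and close to that of the Ccr6/Cd4 group. T cells were tested against the mean of the 3 groups. The mean is taken on the log2 scale, so the folds below are not ratios to an average of CPM. It weights the 3 groups equally, so the small Ccr6/Cd4 group (128 and 79 cells) counts as much as the others. There Bcl2a1d rests on 15 and 34 UMIs. Over the mean of those groups, Bcl2a1b was 3.25-fold higher, Pmaip1 3.49-fold higher and Bcl2a1d 1.53-fold higher, and Bcl2 stood at 0.581 of it. These were 3 members called higher and 1 called lower of 10 tested (edgeR's quasi-likelihood test on UMIs summed per sample and cell group, n = 2 samples, Benjamini-Hochberg adjusted p below 0.05 over 9637 genes). Among all genes tested, 15.2% were called, 8.81% higher and 6.38% lower. The median log2 ratio of the 10 members was 0.07, beside 0.05 for all genes, with members called in both directions. Bcl2l1, Mcl1, Bcl2l11, Bbc3, Bax and Bak1 were not called in any of the 4 comparisons. With cells that held at least 2 UMIs of 13 stromal, B or plasma, myeloid and epithelial genes left out, the 4 calls in T cells held, at a log2 ratio of 1.65 for Bcl2a1b (adjusted p = 2.98e-14), 1.57 for Pmaip1 (0.000106), 0.57 for Bcl2a1d (2.13e-05) and −0.80 for Bcl2 (3.38e-08).

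**Figure D1:**
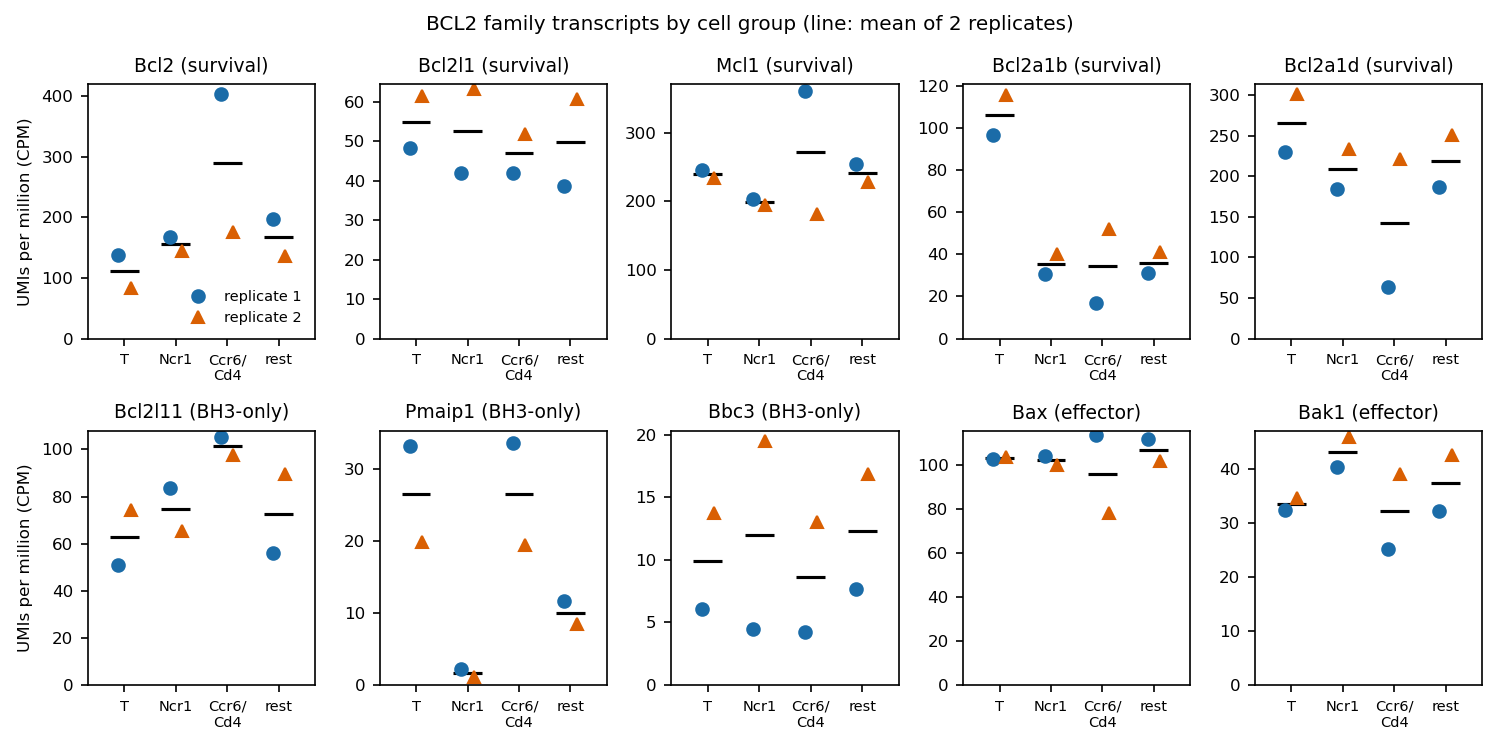
Level of each BCL2 family gene in CPM (linear axes from 0) by cell group, with 1 point per replicate and a line at the mean of the 2 replicates. Both Bcl2a1b values of the T group, 96.8 and 116 CPM, lie above all 6 others, and Pmaip1 is lowest in the Ncr1 group at 2.24 and 1.15 CPM.

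Bcl2, the founding survival member, measured 137 and 84.2 CPM in the T group, 168 and 145 CPM in the Ncr1 group, 404 and 175 CPM in the Ccr6/Cd4 group and 198 and 136 CPM in the rest (replicates 1 and 2). Within each replicate the T group was the lowest of the 4 and the Ccr6/Cd4 group the highest. Across replicates the ranges touched, since T cells of replicate 1 stood 1 CPM above the rest of replicate 2. The log2 ratio of T cells over the mean of the others was −0.78 ± 0.13 (SE; adjusted p = 7.46e-05), and it was −0.74 and −0.76 in the single replicates. Thinned to 1000 UMIs a cell, 12.1% and 7.99% of T cells had a Bcl2 UMI, against 15.5% and 13.4% of Ncr1 cells, 26.9% and 16.2% of Ccr6/Cd4 cells and 17.0% and 11.7% of the rest. Unthinned, the shares were 22.5% and 12.8% in T cells, 25.2% and 21.9% in Ncr1 cells, 46.1% and 26.6% in Ccr6/Cd4 cells and 26.6% and 17.5% in the rest. Without the sample term in the fit the call of Bcl2 in T cells was lost (log2 ratio −0.78, adjusted p = 0.348).

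The same gene separated the CD3-negative groups less firmly. Bcl2 was lower in the Ncr1 group than in the Ccr6/Cd4 group (log2 ratio −0.85 ± 0.20, adjusted p = 0.012), at −1.20 in replicate 1 and −0.15 in replicate 2. It was higher in the Ccr6/Cd4 group than in the rest (0.74 ± 0.19, adjusted p = 0.0241), at 0.99 and 0.20 in the replicates. Both calls therefore drew most of their size on the 96 UMIs of the 128 Ccr6/Cd4 cells of replicate 1, and both ended when cells were thinned to 1000 UMIs (adjusted p = 0.142 and 0.151), in DESeq2's Wald test (0.0642 and 0.111) and without the sample term (0.542 and 0.699). They held without the cells with stromal, B or plasma, myeloid or epithelial UMIs (log2 ratio −0.72 and 0.61, adjusted p = 0.0111 and 0.0358). Between the Ncr1 group and the rest Bcl2 was not called (log2 ratio −0.11, 95% interval −0.41 to 0.19). Within the Ccr6/Cd4 group of replicate 1, cells with Ccr6 and no Cd4 had 512 CPM and cells with Cd4 and no Ccr6 had 374 CPM, while in replicate 2 the order was the other way, 132 and 218 CPM.

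Mcl1, a survival protein with a short half-life on which many lymphocytes depend, was not called in any comparison. It measured 245 and 234 CPM in T cells, 204 and 195 CPM in Ncr1 cells, 362 and 182 CPM in Ccr6/Cd4 cells and 255 and 229 CPM in the rest. The Ncr1 values lay below both T values and both values of the rest, and the Ccr6/Cd4 values spanned all others. T cells over the mean of the other groups gave a log2 ratio of 0.07 (95% interval −0.17 to 0.31), and Ncr1 cells over the rest gave −0.29 (−0.58 to −0.00180), at −0.30 and −0.27 in the replicates. That interval excludes 0, and the adjusted p over all genes was 0.622. Bcl2l1, whose long isoform BCL-XL protects many cell types, was not called either. It measured 48.4 and 61.5 CPM in T cells, 41.9 and 63.2 CPM in Ncr1 cells, 42.0 and 52.0 CPM in Ccr6/Cd4 cells and 38.7 and 60.7 CPM in the rest, so that all 4 groups overlapped. The interval for T cells over the others, −0.14 to 0.56 on the log2 scale, includes 0.

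Bcl2a1b had the clearest group difference among the members. It measured 96.8 and 116 CPM in T cells, 30.6 and 40.2 CPM in Ncr1 cells, 16.8 and 52.0 CPM in Ccr6/Cd4 cells and 31.02 and 41.1 CPM in the rest. Both T values stood above all 6 others, and the 3 groups without CD3 overlapped one another. The log2 ratio of T cells over the mean of the others was 1.70 ± 0.16 (adjusted p = 2.43e-08), at 1.99 and 1.47 in the replicates, and it stayed called without the sample term (adjusted p = 0.0349). At 1000 UMIs a cell, 9.52% and 10.9% of T cells had a Bcl2a1b UMI, against 2.70% and 3.58% of Ncr1 cells, 1.68% and 2.70% of Ccr6/Cd4 cells and 2.79% and 3.71% of the rest.

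As a gauge of free RNA, Bcl2a1b was looked up in cells of replicate 1 with at least 5 UMIs of Col1a1, Col1a2, Col3a1 and Dcn, since stromal cells should lack it. Among the 78 such cells of the rest, which by their choice hold no CD3 UMI, 1.28% had a Bcl2a1b UMI (1 of 78, exact Clopper-Pearson 95% interval 0.0325% to 6.94%, counting error only), at a median depth of 2199 UMIs. Among the 147 such cells of any group, which also held T cell marker UMIs (1195 CPM), 8.84% had one (interval 4.79% to 14.6%), at a median of 2447 UMIs. Unthinned, 19.1% and 17.3% of T cells had one (interval 16.8% to 21.5% in replicate 1), at medians of 1991 and 1769 UMIs, against 5.43% and 7.31% of Ncr1 cells, 3.13% and 7.59% of Ccr6/Cd4 cells and 4.96% and 6.44% of the rest. In replicate 1 the T share lies above both stromal intervals, and the shares of the 3 groups without CD3 lie within or below them, so that Bcl2a1b in these groups was not told apart from free RNA at this depth. Replicate 2 had 10 such stromal cells, 5 of them in the rest, which is too few for a gauge.

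Bcl2a1d measured 230 and 301 CPM in T cells, 185 and 233 CPM in Ncr1 cells, 63.1 and 221 CPM in Ccr6/Cd4 cells and 186 and 251 CPM in the rest. Within each replicate T cells were highest and Ccr6/Cd4 cells lowest, and the ranges overlapped across replicates. The log2 ratio for T cells was 0.62 ± 0.12 (adjusted p = 0.000836), at 0.88 and 0.44 in the replicates, and the call was lost without the sample term (0.60, adjusted p = 0.625). The Ccr6/Cd4 group was lower than the rest (−0.86 ± 0.23, adjusted p = 0.0354), at −1.60 and −0.36. That value rests on 15 and 34 UMIs. The call ended with DESeq2's size factors (adjusted p = 0.0549), in DESeq2's own test (0.152), with the stricter cell filter (0.0535), without the sample term (0.776) and under the rule with Cd4 and no Ccr6 UMI (0.171), at log2 ratios between −0.83 and −0.79, and it held without the cells with stromal, B or plasma, myeloid or epithelial UMIs (−0.83, adjusted p = 0.00993). In replicate 1, 9.38% of Ccr6/Cd4 cells had a Bcl2a1d UMI, beside 12.8% of the 78 stromal cells of the rest and 21.8% of the 147 of any group, so that it was not told apart from free RNA. For the Ncr1 group over the Ccr6/Cd4 group the log2 ratio was 0.79 (adjusted p = 0.0652), at 1.61 and 0.21, and it passed the threshold under 5 of the other settings, such as the T cell rule that adds Trac (1.25, adjusted p = 0.00108).

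Summed over Bcl2a1b, Bcl2a1d and Bcl2a1a, another copy outside the 10 genes, T cells had 358 and 456 CPM, against 222 and 277 CPM in Ncr1 cells, 88.3 and 273 CPM in Ccr6/Cd4 cells and 221 and 303 CPM in the rest. The sum was thus highest in T cells in both replicates, and this does not depend on how reads were split between copies. Bcl2a1b made up 27.0% and 25.4% of the summed UMIs in T cells, against 13.8% and 14.5% in Ncr1 cells and 14.0% and 13.6% in the rest. In Ccr6/Cd4 cells it made up 19.0% in each replicate, of only 21 and 42 UMIs. Bcl2a1a itself had 31.3 and 38.8 CPM in T cells, against 6.73 and 3.45 CPM in Ncr1 cells, 8.41 and 0 CPM in Ccr6/Cd4 cells and 3.65 and 10.4 CPM in the rest, and was called higher in T cells (adjusted p = 5.72e-06).

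**Figure D2:**
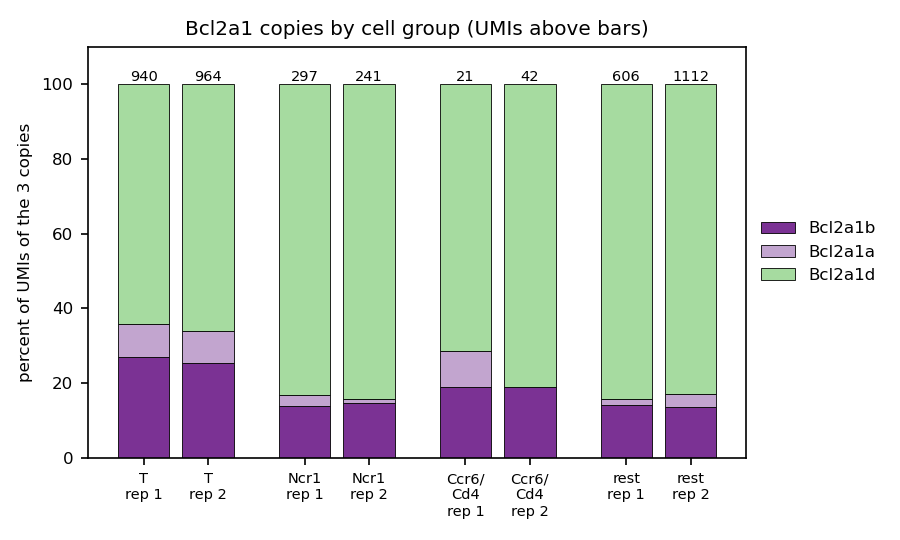
Share of the UMIs of the 3 Bcl2a1 copies that fell to each copy, in percent, for each cell group and replicate, with the number of UMIs above each bar. The Bcl2a1b share in T cells, 27.0% and 25.4%, is above the 13.6% to 14.5% of the Ncr1 group and the rest.

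Among the BH3-only genes, Pmaip1, which encodes the MCL1 and BCL2-A1 binding protein NOXA, differed most. It measured 33.2 and 19.9 CPM in T cells, 2.24 and 1.15 CPM in Ncr1 cells, 33.6 and 19.5 CPM in Ccr6/Cd4 cells and 11.7 and 8.44 CPM in the rest. T and Ccr6/Cd4 cells had closely similar values, the rest lay below them, and Ncr1 cells lay below all others with no overlap. Counts were small, at 87 and 42 UMIs in T cells, 3 and 1 in Ncr1 cells, 8 and 3 in Ccr6/Cd4 cells and 32 and 31 in the rest. In replicate 1, 4.35% of T, 0.493% of Ncr1, 5.47% of Ccr6/Cd4 and 1.65% of rest cells had a Pmaip1 UMI. The 78 stromal cells of the rest had 1.28% (exact 95% interval 0.0325% to 6.94%) and the 147 of any group 2.72% (0.746% to 6.82%). All 4 shares lie within or below these intervals, so Pmaip1 was not told apart from free RNA by this gauge. The log2 ratio of T cells over the mean of the 3 other groups was 1.803 ± 0.284 (adjusted p = 5.42e-05), at 1.82 and 1.84 in the replicates, and it stayed called without the sample term (adjusted p = 0.0445). That mean is taken on the log2 scale and weights the groups equally, so it describes neither the Ncr1 nor the Ccr6/Cd4 group alone. On this scale the low Ncr1 level, on 3 and 1 UMIs, lowers the mean and raises the ratio.

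Pmaip1 was called lower in the Ncr1 group than in the Ccr6/Cd4 group (log2 ratio −3.82, adjusted p = 0.00212) and lower than in the rest (−2.51, adjusted p = 0.0263). With 4 UMIs in all Ncr1 cells, the pooled ratio of CPM was 0.0645 of the Ccr6/Cd4 group (95% interval 0.0150 to 0.218, counting error only) and 0.184 of the rest (0.0487 to 0.496). T cells had 15.0 times the Ncr1 level by the same measure (5.73 to 56.0). The call against the rest ended when cells were thinned (log2 ratio −1.62, adjusted p = 0.873), in DESeq2's test (0.669) and without the sample term (1). It also ended without the cells with stromal, B or plasma, myeloid or epithelial UMIs (−1.87, adjusted p = 0.414). The call against the Ccr6/Cd4 group ended without the sample term (0.111). The Ccr6/Cd4 group over the rest gave 1.31 ± 0.52 and was not called (adjusted p = 0.208). It passed on thinned cells (2.55, adjusted p = 0.0376) and without the cells with stromal, B or plasma, myeloid or epithelial UMIs (1.92, adjusted p = 0.0446).

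Myeloid markers moved with part of the Pmaip1 signal. In the T group of replicate 1, 28 of the 87 Pmaip1 UMIs came from 7 of 1149 cells that held at least 20 UMIs of the myeloid list, and the T group of replicate 2 held no such cell. Myeloid markers summed to 573 and 212 CPM in T cells, 364 and 257 CPM in Ncr1 cells, 454 and 351 CPM in Ccr6/Cd4 cells and 699 and 346 CPM in the rest. Of the 6 myeloid genes, 6 and 5 had a UMI in T cells, 5 and 2 in Ncr1 cells, 4 and 3 in Ccr6/Cd4 cells and 6 and 6 in the rest. Csf1r was at 0 in both replicates of the Ncr1 and Ccr6/Cd4 groups. Adgre1 went the same way as Pmaip1 between these groups, at 0.752 and 0 TMM-scaled CPM in Ncr1 cells, against 29.6 and 58.7 in Ccr6/Cd4 cells (adjusted p = 0.000556), and at most 5.89 in T cells and the rest. It was also called higher in Ccr6/Cd4 cells than in the rest (log2 ratio 3.41, adjusted p = 0.00366). Lyz2, on the same list, was called lower there by edgeR (−4.42, adjusted p = 0.00539), where the list's median log2 ratio was −1.61. Lyz2 was also called higher in T cells over the mean of the others (2.30, adjusted p = 0.00153) and lower in Ncr1 cells than in the rest (−5.52, adjusted p = 4.75e-06). Between Ncr1 and Ccr6/Cd4 cells, Adgre1 was the 1 gene called of 5 tested. With myeloid and B or plasma marker cells left out, Pmaip1 measured 23.0 and 19.9 CPM in T cells, 2.34 and 1.16 CPM in Ncr1 cells, 34.2 and 19.5 CPM in Ccr6/Cd4 cells and 7.96 and 6.09 CPM in the rest. The T call held (log2 ratio 1.64, adjusted p = 0.000118), as did that of the Ncr1 group against the Ccr6/Cd4 group (−3.80, adjusted p = 0.00128). The Ncr1 group was no longer called against the rest (−1.91, adjusted p = 0.139), and the Ccr6/Cd4 group was called higher than the rest (1.89, adjusted p = 0.0499).

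Bcl2l11, whose product BIM binds all survival members and is known to rise when cytokine support is withdrawn, measured 51.1 and 74.3 CPM in T cells, 83.7 and 65.5 CPM in Ncr1 cells, 105 and 97.4 CPM in Ccr6/Cd4 cells and 55.8 and 89.3 CPM in the rest. Both Ccr6/Cd4 values were above all 6 others, although no comparison passed the threshold. The Ccr6/Cd4 group over the rest gave 0.43 (95% interval −0.23 to 1.08, adjusted p = 0.589), and T cells over the mean of the others gave −0.37 (−0.74 to −0.00751, adjusted p = 0.177). The Ncr1 group over the rest was 0.61 in replicate 1 and −0.49 in replicate 2. Bbc3, a p53 target that encodes PUMA, was the most thinly counted member over all kept cells of replicate 1. It measured 6.10 and 13.7 CPM in T cells, 4.48 and 19.5 CPM in Ncr1 cells, 4.20 and 13.0 CPM in Ccr6/Cd4 cells and 7.66 and 16.9 CPM in the rest, with 1 and 2 UMIs in the Ccr6/Cd4 group. The 4 groups overlapped, and a difference in Bbc3 was not detectable at this depth (T cells over the others 95% interval −0.85 to 0.82).

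Neither effector gene was called in any comparison. Bax measured 103 and 104 CPM in T cells, 104 and 99.9 CPM in Ncr1 cells, 114 and 77.9 CPM in Ccr6/Cd4 cells and 112 and 102 CPM in the rest. The T over others interval of −0.20 to 0.33 and the Ncr1 over rest interval of −0.37 to 0.22 on the log2 scale set the range of differences these data allow. Bak1 measured 32.4 and 34.5 CPM in T cells, 40.4 and 45.9 CPM in Ncr1 cells, 25.2 and 39.0 CPM in Ccr6/Cd4 cells and 32.1 and 42.5 CPM in the rest. Both Ncr1 values lay above both T and both Ccr6/Cd4 values and overlapped the rest. Its interval for the Ncr1 group over the Ccr6/Cd4 group, −0.31 to 1.43, was wide. Exons of Bak1 overlap those of the antisense gene Ggnbp1 over 614 bases and exons of Bcl2 overlap those of the antisense D630008O14Rik over 558 bases. The partners had 11 and 4 UMIs in all kept cells, against 508 for Bak1 and 2054 for Bcl2, and whether the counting used strand is not given in the sources used here.

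**Figure D3:**
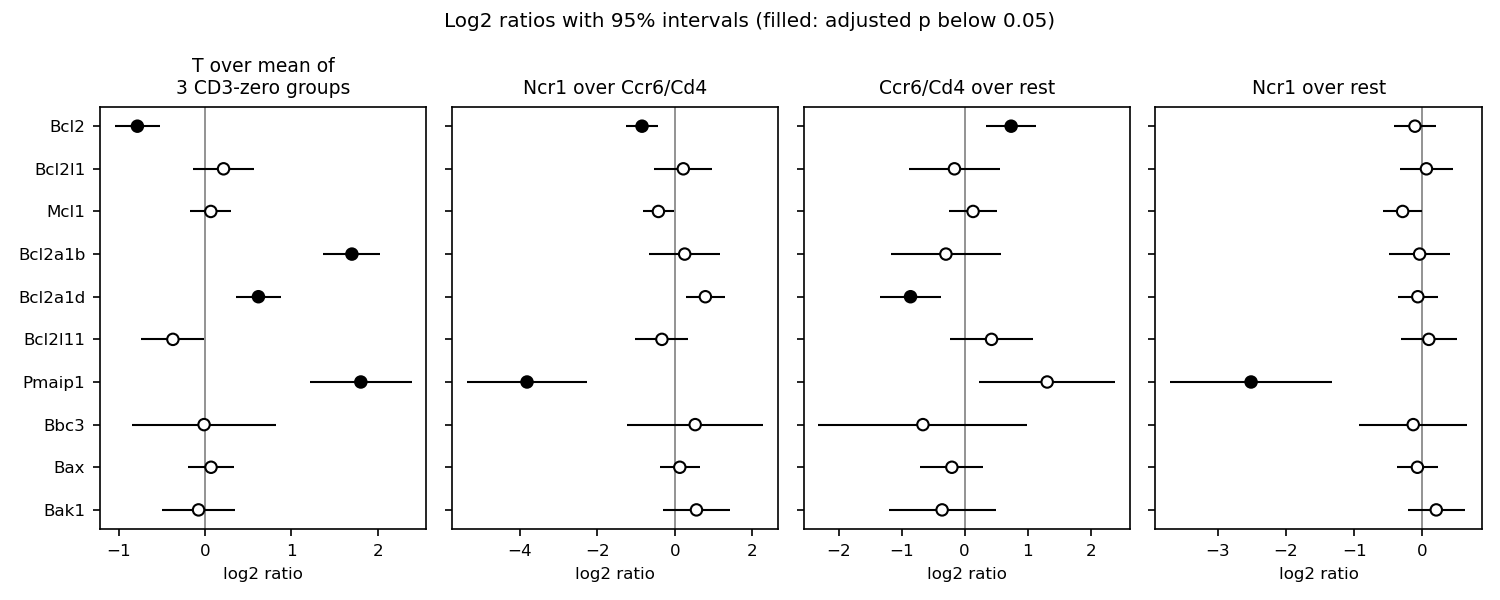
Log2 ratios of the 10 genes in the 4 comparisons, with 95% intervals and filled points where the adjusted p is below 0.05 (each panel has its own horizontal scale). In T cells over the mean of the 3 CD3-negative groups, Bcl2a1b (1.70), Pmaip1 (1.803) and Bcl2a1d (0.62) lie above 0 and Bcl2 (−0.78) below it.

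The comparisons within the CD3-negative cells called fewer members. In the Ncr1 group over the Ccr6/Cd4 group, 2 of 10 members were called, both lower (Bcl2 and Pmaip1), beside 4.56% of all genes called, 2.37% higher and 2.19% lower. In the Ccr6/Cd4 group over the rest, 1 was called higher (Bcl2) and 1 lower (Bcl2a1d), beside 4.17% of all genes called, 1.6% higher and 2.57% lower. In the Ncr1 group over the rest, Pmaip1 was the 1 member called, lower, beside 1.09% of all genes called, 0.083% higher and 1.01% lower. The members' median log2 ratios were 0.18, −0.18 and −0.07 in these 3 comparisons, and those of all genes 0.10, −0.09 and −0.01. The Ccr6/Cd4 and rest groups enter more than 1 comparison, so these results share samples.

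As a whole, the survival genes took 77.1% and 76.4% of the family's UMIs in T cells, 72.8% and 74.5% in Ncr1 cells, 75.9% and 73.4% in Ccr6/Cd4 cells and 76.4% and 73.5% in the rest, a range of 72.8% to 77.1% with no test. Thinned to 1000 UMIs, 50.8% and 54.3% of T cells had a UMI of at least 1 survival gene, against 46.8% and 49.4% of Ncr1 cells, 52.1% and 52.7% of Ccr6/Cd4 cells and 49.9% and 47.7% of the rest. BH3-only UMIs were found in 6.91% and 9.30% of T cells, 7.09% and 7.40% of Ncr1 cells, 15.97% and 13.5% of Ccr6/Cd4 cells and 6.86% and 9.24% of the rest. The Ccr6/Cd4 shares were above all others in both replicates, and Bcl2l11 supplied most of these UMIs there, 25 of 34 and 15 of 20.

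**Figure D4:**
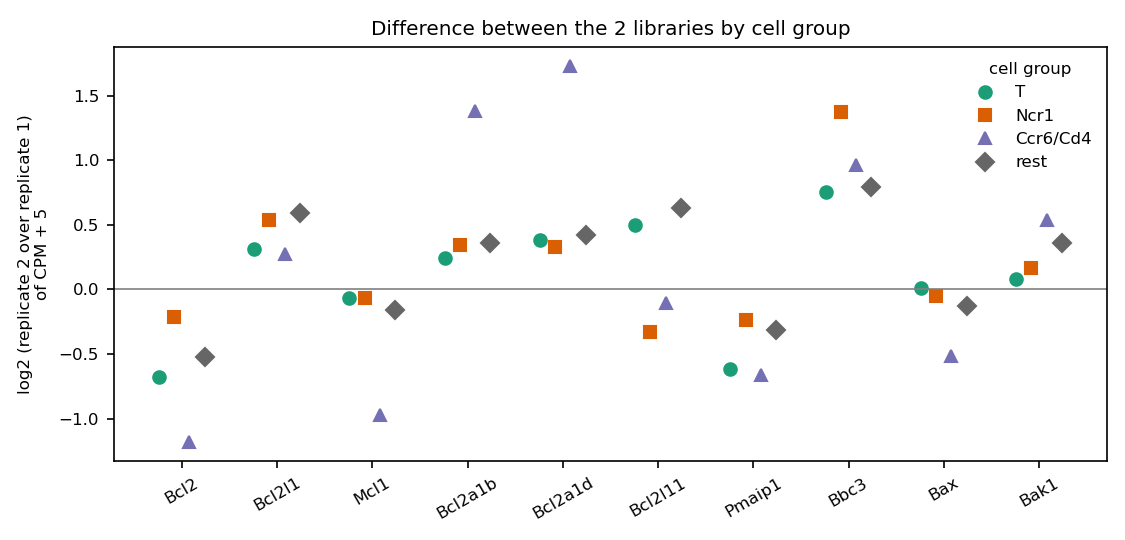
Log2 ratio of replicate 2 over replicate 1 of CPM plus 5 for each gene and cell group, 1 sample on each side. Bcl2, Mcl1 and Pmaip1 lie below 0 and Bbc3, Bcl2l1, Bcl2a1b, Bcl2a1d and Bak1 above 0 in all 4 groups. The Ccr6/Cd4 points of Bcl2a1d (1.73) and Bcl2 (−1.18) are the highest and the lowest.

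The 2 libraries differed for several members in every group alike. Bcl2 of replicate 2 was 0.614 of that of replicate 1 in T cells, 0.861 in Ncr1 cells, 0.435 in Ccr6/Cd4 cells and 0.689 in the rest. Bbc3 was 2.20 to 4.35 times as high in replicate 2, and Bcl2l1 1.24 to 1.57 times. These ratios compare libraries and have no replicate. The 14 stress and immediate early genes, which are known to respond to tissue dissociation, were lower in replicate 2 in sum, at 10466 to 16278 CPM against 17327 to 26367 CPM in replicate 1. Not all of them went that way, since the heat shock genes Hspa1a, at 321 to 594 TMM-scaled CPM in replicate 2 against 16.9 to 45.3 in replicate 1, Hspa1b, Hsph1 and Hsp90aa1 were higher in replicate 2 in every group. In each replicate the Ccr6/Cd4 group had the highest such sum and, with it, the highest Bcl2. In the test, 4 of the 14 (Egr1, Jun, Fosb and Atf3) were lower in Ncr1 than in Ccr6/Cd4 cells and 4 of the 14 higher in Ccr6/Cd4 cells than in the rest. Their part in the Bcl2 result was not tested.

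Calls in the surrounding pathway in T cells stand beside the 15.2% of all genes called there, 8.81% higher and 6.38% lower, and no list was tested as a set. Of the 16 other BCL2 family genes listed, 9 were tested, and in T cells 1 was called higher (Bcl2a1a, 6.09-fold) and 1 lower, the BH3-only gene Bik. Bik had 10.8 and 18.1 TMM-scaled CPM in T cells, against 29.6 to 53.1 over the 6 other sums, a log2 ratio of −1.52 (adjusted p = 9.06e-05). Of 16 caspase and apoptosome genes, none was called higher and 3 were called lower by edgeR, namely Birc3, an inhibitor of apoptosis (−0.51, adjusted p = 0.000907), Htra2, a mitochondrial protease (−0.86, adjusted p = 0.00294), and Aifm1, the apoptosis-inducing factor (−0.67, adjusted p = 0.0286). The members' medians on these lists, −0.42 and −0.10 on the log2 scale, stand beside 0.05 for all genes.

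Of 9 tested death receptor genes, 3 were called higher in T cells and none lower, again beside 8.81% and 6.38% of all genes. Tnfrsf10b, the mouse TRAIL receptor, had 48.0 and 40.4 TMM-scaled CPM in T cells, against 4.93 to 16.5 over the 6 other sums (5.39-fold, adjusted p = 1.43e-07). Fasl, the ligand of Fas, had 62.3 and 68.4 in T cells, against 12.9 to 26.8 (2.97-fold, adjusted p = 7.24e-06), and Tnfrsf1b, which encodes TNFR2, was 1.44-fold higher. Of 22 upstream regulators, 1 was called higher and 5 lower in T cells, beside the same shares. Foxo1, a transcription factor that acts on Il7r and Bcl2l11 in T cells, was 1.91-fold higher (adjusted p = 5.24e-07), whereas Il2ra (−0.50), Rel (−0.50) and Nfkb1 (−0.39) were lower. Il7r was not called (0.17, adjusted p = 0.2), nor was Trp53 (−0.04, adjusted p = 0.904). Of the 14 stress and immediate early genes 6 were lower in T cells, beside 6.38% of all genes, led by Atf3 (−1.31, adjusted p = 7.05e-08).

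Among CD3-negative cells fewer pathway genes were called, as were fewer of all genes, 4.56%, 4.17% and 1.09% in the 3 comparisons against 15.2% in T cells. The Ncr1 group over the Ccr6/Cd4 group had Birc3 lower (−0.57, adjusted p = 0.0412), Il2rb, a receptor chain for IL-2 and IL-15, higher (0.40, adjusted p = 0.0124) and Nfkbia lower (−0.38, adjusted p = 0.0202). The Ccr6/Cd4 group over the rest and the Ncr1 group over the rest had no called gene among the 16 other BCL2 family genes or in the caspase, death receptor and regulator lists by edgeR. In the Ncr1 group over the rest, Egr1 was the 1 stress gene called, lower.

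The genes closest to Bcl2 in pattern over the 8 sums, by Pearson's r of log2 CPM centred within each sample among 5535 genes, were Zc3h14 (0.983), Tm9sf2 (0.979) and Arhgap5 (0.979). Those closest to Bcl2a1b were Srgap3 (0.995) and Rpl12 (0.995), and those closest to Bcl2l11 were Atp5d (0.9504), Csnk1a1 (0.932) and Clcn4 (0.931). The 100th gene in these orders still reached 0.914, 0.919 and 0.785, and the sums share 2 libraries and their depth, so the values only describe these sums.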

How the data were processed

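Sorted ILC3s of 1 group with 2 replicates were profiled on BD Rhapsody. Per the file headers, the deposited values are UMI counts per cell and gene, which the authors obtained from version 1.8 of BD's WTA multiplex pipeline for Rhapsody, on GRCm38 with GENCODE M19. HISAT2 2.0.5, Bowtie2, mm10 and GRCm38.p6 stand in the submitters' processing notes, without a role. Error-corrected UMIs remove PCR duplicates, but reads of near-identical genes can be misassigned. Only cells called with the replicate's own tag were used (3427 of 15793 and 3954 of 16531 cells). Tag multiplets (572 and 987) were left out and no doublet caller was run. The cell filter was 300 genes or more and mitochondrial UMIs of 25% or less, and it kept 3337 and 3840 cells (6939790 and 6810214 UMIs), and a gene in 1 table only was read as 0 in the other.

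Counts were summed per sample and cell group (8 sums of 153949 to 3671205 UMIs) and entered 1 quasi-likelihood fit in edgeR 4.0.16 under R 4.3.3, with sample as a block, TMM factors and the filterByExpr minimum, on 3 residual degrees of freedom. The spread of each gene was moderated by that of all 9643 genes in the fit, and the 95% intervals use the total degrees of freedom that result. P-values were adjusted by Benjamini-Hochberg over 9637 genes, without the 6 genes that define the groups. Single-replicate log2 ratios are differences of TMM-scaled log2 CPM. CPM values are without TMM scaling unless stated. Cell shares carry exact Clopper-Pearson 95% intervals and a floor of 3 counts, for counting error only. The test was tried on simulated data for T cells over the others (9524 genes), where 84% of genes raised 2-fold, 64% of genes lowered to 0.5-fold and 0.0751% of unchanged genes were called. The simulation gave all genes a shared spread, gave each library the same effect in every group and changed only genes above a minimum count. These rates may therefore not hold for the real sums. Alternatives were DESeq2 1.42.0, its size factors in edgeR, other filters, cell rules and thinning, and no block.

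All 10 members are named. From each other list the called genes with the smallest adjusted p are named, at most 4 a comparison, and for 3 members up to 3 genes of nearest pattern. Some genes that this rule would name are not reported here. The values of Il7r and Trp53 were added after their values were seen. Members and lists were chosen with earlier results of these data known. Promoters are from RefSeq on GRCm38.p6.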

Additional observations from a re-analysis of the deposited data

How the results depend on the processing

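Genes called were 1464, 439, 402 and 105 in T cells over the others, Ncr1 over Ccr6/Cd4, Ccr6/Cd4 over rest and Ncr1 over rest. The numbers are sample tags in separate libraries, so the block is the library. With no replicate block the counts were 167, 10, 1 and 0 by edgeR (the last beside 11 by DESeq2 and, in the fit with the block, 765 genes at an unadjusted p under 0.05). DESeq2 called 935 genes in T cells, 253 in Ccr6/Cd4 over rest and 11 in Ncr1 over rest. Cells thinned to 1000 UMIs gave 267 in Ccr6/Cd4 over rest and 62 in Ncr1 over rest. The rule with Cd4 and no Ccr6 UMI, chosen after seeing the data, gave 269 in Ncr1 over Ccr6/Cd4, 202 in Ccr6/Cd4 over rest and 177 in Ncr1 over rest. Ncr1 over rest also moved to 226 without the filter on low counts, 158 with 2 CD3 UMIs, 213 with Ccr6 alone, 48 without cells of other types and, as a setting chosen after seeing the data, 275 without myeloid and B or plasma marker cells.

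Under other settings, no value of the 10 genes changed its direction where called, while 23 values lost and 8 gained a call. Leaving out a replicate leaves no residual degrees of freedom, so it gives values and no test: 1.47 to 1.99 for Bcl2a1b, 1.82 to 1.84 for Pmaip1, 0.44 to 0.88 for Bcl2a1d and −0.76 to −0.74 for Bcl2 in T cells. The block changed no call other than those named with the results. The Pmaip1 call of Ncr1 against Ccr6/Cd4 also ended under the rule with Cd4 alone (adjusted p = 0.0924), the Bcl2 calls of Ncr1 against Ccr6/Cd4 (0.117) and Ccr6/Cd4 against rest (0.224) likewise, and with Ccr6 alone the Bcl2 call of Ccr6/Cd4 against rest ended (0.0628). Depth limits Bbc3, Pmaip1 and the Ccr6/Cd4 group (21 or fewer UMIs of the Bcl2a1 copies in 1 sum).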

Other observations

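T cells were not uniform in the family's transcripts. The values below have no test. T cells with a Trdc and no Trac UMI (121 and 111 cells), which carry a γδ receptor transcript, had 86.0 and 67.5 CPM of Bcl2a1b, against 107 and 127 CPM in T cells with Trac and no Trdc (681 and 596 cells). Pmaip1 had 17.9 and 9.64 CPM in the Trdc cells, on 5 and 2 UMIs, and 29.7 and 26.0 CPM in the Trac cells. Bcl2 had 176 and 91.6 CPM in the Trdc cells and 141 and 79.8 CPM in the Trac cells. Bcl2l11 had 21.5 and 125 CPM in the Trdc cells and 49.2 and 70.2 CPM in the Trac cells, so its order differed between replicates. No Bbc3 UMI was found in the Trdc cells, which allows a share of cells with a Bbc3 UMI of up to 2.48% and 2.70%, against 1.62% and 3.19% of the Trac cells.

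The cells left out by the filter (90 and 114) had medians of 26.3% and 27.9% mitochondrial UMIs and 416 and 297 UMIs a cell. Their UMIs of the 10 genes were 39 and 13 in all, and the survival genes made up 74.4% and 69.2% of them, against 76.0% and 74.6% in the kept cells. The exact intervals of the left-out cells, 57.9% to 87.0% and 38.6% to 90.9%, contain the kept cells' shares. With so few UMIs they are too wide to show that the shares are alike.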
